A study of Canis lupus familiaris with 20 samples.

Results

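Adult sarcomere genes were followed in the muscle of 10 dogs aged 2 years, of which 4 were labelled normal, 4 affected and 2 escaper. Members were chosen by the gene name printed in the array files: the myosin heavy and light chains, myosin-binding proteins C, troponins, tropomyosins, alpha-actinins, myozenins, myomesins, leiomodins and a set of Z-disc genes. The rule found 34 genes on 45 probes, out of 42034 probes on the array. They were 9 genes of fast fibres, 7 of slow fibres, 8 shared by both fibre types, and 10 other matches that are cardiac, smooth muscle, foetal or non-muscle forms or share letters only. MYH1, MYH4, MYH6, ACTA1, NEB, MYOT, LDB3, ANKRD2 and TNNT1 had no probe under those names and were not analysed as members.

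Affected and escaper dogs share the label DMD, for Duchenne muscular dystrophy, the disease of muscle that lacks dystrophin. An escaper is a dog that carries the disease but keeps walking with few signs of it. The labels name neither the allele nor the muscle sampled. Every dog was hybridised on 2 arrays of opposite dye against 1 RNA, from the muscle of a normal individual whose age is not given, so each value is a log2 ratio of dog over that reference. A level is therefore never comparable between probes, only between dogs for the same probe. Each slide held 2 dogs of 1 group, so no slide holds both groups of a comparison, and slide and escaper group cannot be told apart. In whole muscle, fewer fibres of a type and less RNA in each fibre cannot be told apart either.

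The sarcomere is the contractile unit of muscle, in which thick filaments of myosin slide along thin filaments of actin. Calcium acts through troponin and tropomyosin on the thin filament, the Z-disc anchors thin filaments, the M-band holds thick filaments in register, and titin spans from one to the other. Fast and slow fibres build the same structure from different forms of myosin, myosin-binding protein C and troponin, and dystrophic muscle is known for damage that falls hardest on fast fibres.

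Probe sequences are shown for the members on which the results turn, 5′ to 3′ as printed on the array. The array files give positions on dog chromosomes, and the build is not given in the sources used here. Titin (TTN) has a probe close to the 3′ end of the gene, at chr36:25173973-25174032, and a second, internal one at chr36:25294074-25294558, both on the minus strand. The internal probe is 60 bases long but spans 485 bases of genome. Capitals mark the copies of GAACCT in the internal probe, which holds 4, as does no other of the 42034 probes on either strand (reverse complement AGGTTC). At least 1 copy of this motif, read on either strand, lies in 2.8% of all probes. The fast and slow forms of myosin-binding protein C (MYBPC2 and MYBPC1), the Z-disc protein genes CSRP3 and MYOZ2 and the light chain gene MYL4 are shown because dogs differed most there or because 2 probes of the gene can be set side by side. MYBPC2 lies at chr1:109164341-109164400 on the minus strand, and the MYBPC1 probes at chr15:43595564-43598819 and chr15:43587493-43587552 on the plus strand. CSRP3 lies at chr21:44490479-44490538 on the minus strand and MYOZ2 at chr32:41053700-41053759 on the plus strand. The MYL4 probes lie at chr9:12338284-12343053 on the plus strand (named) and chr9:12330010-12330069 on the minus strand (described). Exons and introns were not analysed here.
TTN, 3′ end: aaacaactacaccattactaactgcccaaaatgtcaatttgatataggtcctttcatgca
TTN, internal: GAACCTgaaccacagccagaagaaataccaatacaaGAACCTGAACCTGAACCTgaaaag
MYBPC2: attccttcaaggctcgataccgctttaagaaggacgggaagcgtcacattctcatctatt
MYBPC1, bright probe: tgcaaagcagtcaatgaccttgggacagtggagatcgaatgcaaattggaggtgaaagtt
MYBPC1, dimmer probe: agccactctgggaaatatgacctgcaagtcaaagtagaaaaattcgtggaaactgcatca
CSRP3: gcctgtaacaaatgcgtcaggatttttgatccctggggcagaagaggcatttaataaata
MYOZ2: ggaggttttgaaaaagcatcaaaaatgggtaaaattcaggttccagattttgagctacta
MYL4, named probe: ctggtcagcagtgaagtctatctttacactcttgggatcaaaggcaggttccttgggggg
MYL4, described probe: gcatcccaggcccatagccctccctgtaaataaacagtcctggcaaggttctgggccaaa

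A probe was tested if it was well above background on both arrays of at least 2 dogs and had an unflagged spot in every dog. That left 37 member probes of 29 genes among 16008 tested probes. Sarcomere transcripts were so abundant that many spots reached the scanner's ceiling. Of the 45 member probes, 13 (28.9%) were saturated in at least 1 channel of at least 1 array, against 0.723% of all probes. The 4 fast probes of MYH2, MYL1, MYLPF and TNNI2 were saturated in every array of the normal dogs, in the dog's channel and in the reference. Their values then differed within a normal dog by 0.23 in normal 1 and by 0.04, 0.03 and 0.01 in the other three. At those probes the normal level is only a bound.

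In the limma fit of all 10 dogs, 0 of the 29 member genes passed an adjusted p of 0.05 in any of the 3 comparisons. Between affected and normal dogs, 0 of 37 member probes passed, as did 0.0187% of all tested probes. At an unadjusted p under 0.05 the count was 3 of 37 member probes, with 12.4% of all tested probes, and 2 member probes had no overlap between the groups, with 12.7% of all. Between escaper and normal dogs, 0 passed with 0% of all tested probes, 6 of 37 had an unadjusted p under 0.05 with 18.4% of all, and 4 had no overlap with 30.2% of all. Between escaper and affected dogs, 0 passed with 0% of all, 1 had an unadjusted p under 0.05 with 5.22% of all, and 0 had no overlap with 7.84% of all. The member shares lay at or below their background in every one of these 9 counts. All p-values measure the spread between these dogs, and escapers number 2.

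**Figure D1:**
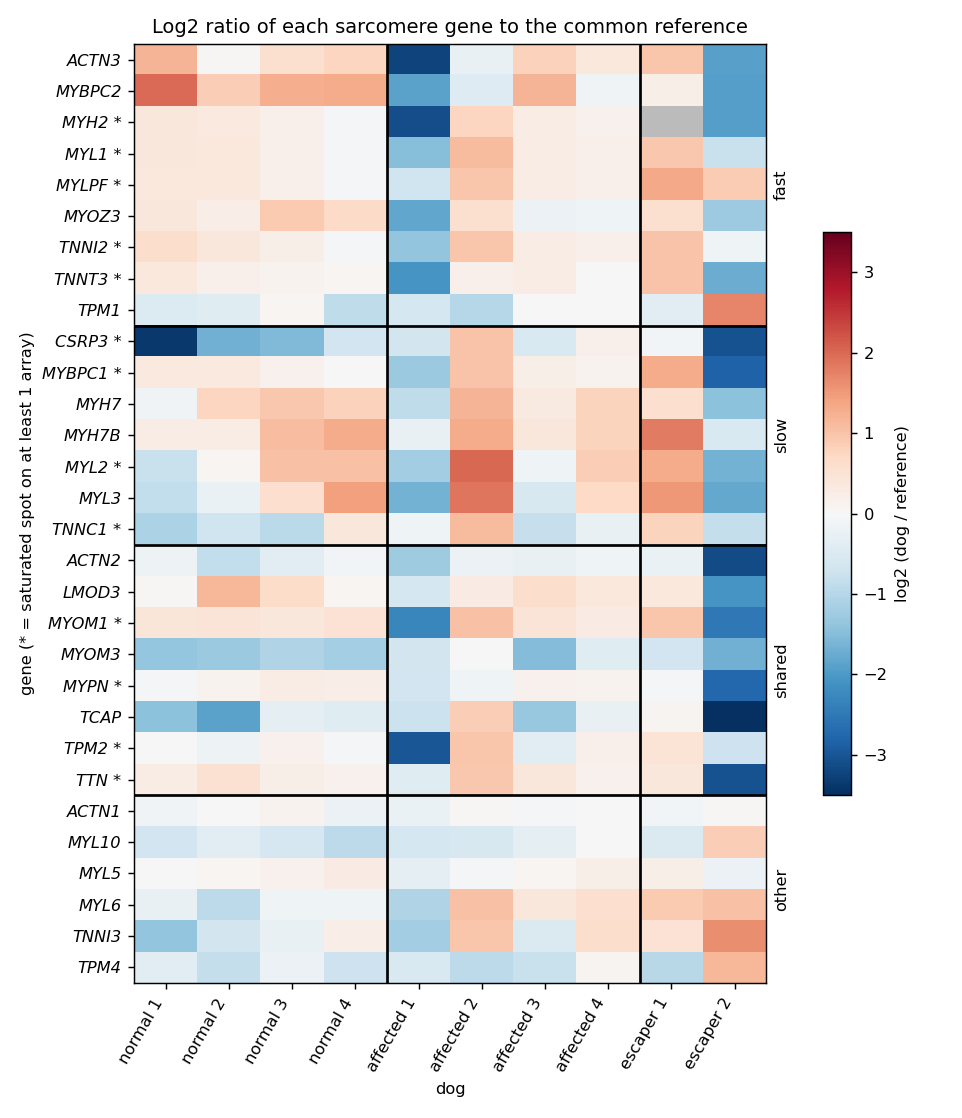
Log2 ratio of dog over reference (colour) for the brightest tested probe of 29 sarcomere genes and for MYH2 (rows), in 10 dogs (columns). Asterisks mark probes with a saturated spot and grey marks a missing value. Affected 1 is low across most fast genes, and escaper 2 is low across most slow and shared genes.

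Among the fast genes, the lowest of the 10 dogs was affected 1 in 6 of 8 tested genes, and the lowest was escaper 2 in 1. Over all 6214 genes with a symbol, affected 1 was the lowest dog in 18% and escaper 2 in 24.8%. The median log2 ratio of the 8 fast genes was −1.65 in affected 1 and 0.10 to 0.36 in the other affected dogs, 0.01 to 0.40 in normal dogs, and 0.96 and −1.02 in escaper 1 and escaper 2. The groups overlapped. The median fast difference was −0.44 for affected minus normal and −0.35 for escaper minus normal, beside medians of 0.05 and 0.00473 over all genes with a symbol. Without affected 1 the first was 0.03. Using only the 4 fast genes with a probe that was never saturated (ACTN3, MYBPC2, MYOZ3, TPM1), the medians were −1.09 and −1.01. By dog, the median log2 ratio of these 4 genes was 0.14 to 0.79 in normal dogs. It was −1.84, −0.35, 0.40 and −0.05 in affected dogs 1 to 4, and 0.38 and −1.58 in the escapers. Escaper 1 thus lay above the normal dogs, and affected 2 among them, only with saturated probes included.

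MYH2 encodes the fast 2A myosin heavy chain. Its probe was saturated in the reference on all 20 arrays and in the dog's channel on 14, and it was not tested because both escaper 1 spots were flagged. Log2 ratios were 0.38, 0.35, 0.18 and −0.06 in normal dogs 1 to 4, −3.10, 0.76, 0.27 and 0.16 in affected dogs 1 to 4, and −1.92 in escaper 2. Affected 1 and escaper 2 were the low dogs, and the other dogs lay at the ceiling or near it.

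MYBPC2, the fast form of the protein that braces the thick filament, had the smallest p of the fast genes in both comparisons with normal dogs. Its log2 ratios were 1.99, 0.87, 1.26 and 1.30 in normal dogs 1 to 4, −1.87, −0.44, 1.18 and −0.11 in affected dogs 1 to 4, and 0.19 and −1.93 in escapers 1 and 2. Affected 3 lay among the normal dogs, while the 3 other affected dogs and both escapers lay below all of them. The difference was −1.67 ± 0.63 (SE) for affected minus normal, a 3.18-fold lower level with a limma adjusted p of 0.35. For escaper minus normal it was −2.22 ± 0.78 (SE), with a limma adjusted p of 0.21. No fold is given there, because only 2 of 4 escaper arrays gave a signal well above background. That difference was −3.89 with the processed signals and −1.16 without escaper 2.

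ACTN3, the alpha-actinin of fast Z-discs, was measured by a probe without saturation. Its values were 1.19, 0.04, 0.57 and 0.76 in normal dogs, −3.23, −0.25, 0.80 and 0.37 in affected dogs, and 0.96 and −1.90 in the escapers. Affected 1 and escaper 2 stood far below the rest, and the affected minus normal difference of −1.22 ± 0.88 (SE) had an adjusted p of 0.59 in limma. MYOZ3, a Z-disc protein that binds alpha-actinin, read 0.39, 0.24, 0.91 and 0.68 in normal dogs, −1.81, 0.56, −0.20 and −0.14 in affected dogs, and 0.57 and −1.26 in the escapers. Of the affected dogs, 2 lay just below the normal dogs and affected 1 far below, and affected minus normal was −0.95 ± 0.52 (SE) with a limma adjusted p of 0.48. That difference was −0.48 without affected 1 and −1.74 with the processed signals. The MYOZ3 probe was well above background on 6 of 8 affected and 2 of 4 escaper arrays only, so its lowest values may be bounds.

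The fast light chains and troponins could be read only where they fell below the ceiling. TNNT3, the fast troponin T that ties troponin to tropomyosin, was −2.06 in affected 1 and −1.74 in escaper 2 and 0.00362 to 0.99 in all other dogs. MYL1, a fast essential light chain, was −1.50 and −0.78 in those 2 dogs and −0.05 to 1.10 elsewhere. TNNI2, the fast troponin I, was −1.39 in affected 1 and −0.15 in escaper 2, and −0.04 to 0.99 elsewhere. No fold is given for MYL1 or TNNI2, because every normal array was saturated, as were 5 of 8 affected arrays for MYL1 and 7 of 8 for TNNI2. Limma adjusted p for affected minus normal was 0.89 for MYL1 and 0.82 for TNNI2.

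MYLPF, the fast regulatory light chain, went the other way in escaper 2. Its values were 0.38, 0.37, 0.18 and −0.06 in normal dogs, −0.68, 0.98, 0.26 and 0.17 in affected dogs, and 1.33 and 0.89 in the escapers. The escapers did not overlap the normal dogs, with a difference of 0.89 ± 0.37 (SE) and a limma adjusted p of 0.25. Escaper 1 rests on 1 array. No fold is given, because the probe was saturated on all normal arrays, and with median centring in place of loess the difference was −0.36. TPM1, a tropomyosin that occurs in fast fibres and also outside muscle, was 1.71 in escaper 2 and −0.995 to 0.08 in every other dog, and its second probe ran the same way at 1.31 against −1.15 to −0.21. The fast troponin I gene TNNI2 had a second probe that was too dim to test.

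Slow genes did not separate the groups, and they varied widely among normal dogs. Normal dogs 1 and 2 shared a slide and read lower than normal dogs 3 and 4, which shared another. Slide and dog cannot be told apart in that spread. Affected 2 was the highest of the 10 dogs in 5 of the 7 slow genes and escaper 1 in the other 2, while escaper 2 was the lowest in 5 and normal 1 in 2. Over all genes with a symbol, affected 2 was the highest dog in 5.73%. The median of the 7 slow genes was −0.79, 0.06, 0.59 and 0.81 in normal dogs 1 to 4, −0.88, 1.20, −0.15 and 0.69 in affected dogs 1 to 4, and 1.29 and −1.64 in the escapers. The median slow difference was −0.15 for affected minus normal and −0.37 for escaper minus normal. Without affected 1 the first was 0.43, and without escaper 2 the second was 1.09.

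**Figure D2:**
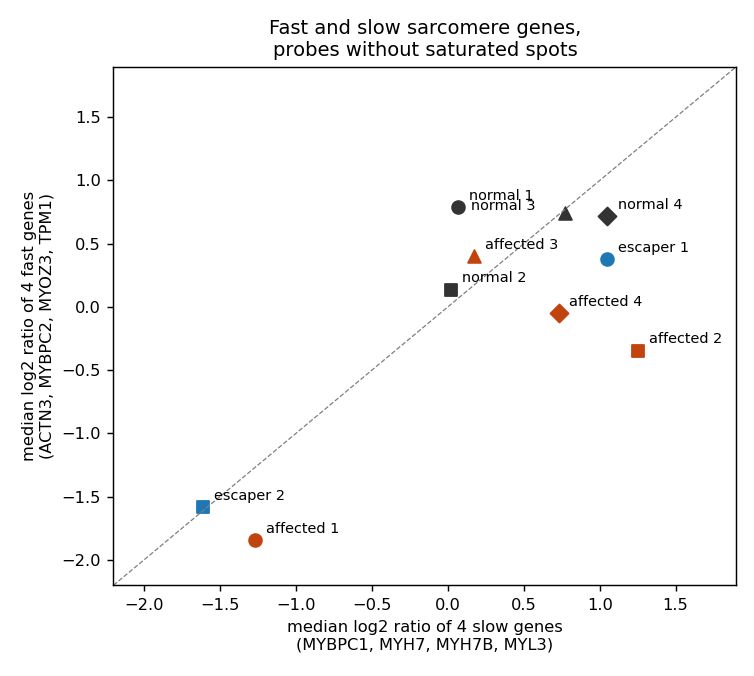
Median log2 ratio of 4 fast genes (vertical) against that of 4 slow genes (horizontal) in each of 10 dogs, using probes without saturated spots, with a dashed line where both are equal. Escaper 2 and affected 1 are low for both, and affected 2 lies farthest below the line, with fast minus slow at −1.60.

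MYH7 encodes the slow myosin heavy chain. Its brighter probe read −0.12, 0.76, 0.95 and 0.81 in normal dogs, −0.88, 1.20, 0.31 and 0.78 in affected dogs, and 0.58 and −1.43 in the escapers. The groups overlapped, with a difference of −0.25 ± 0.53 (SE) for affected minus normal and −1.03 ± 0.64 (SE) for escaper minus normal, at limma adjusted p of 0.87 and 0.41. The second rested on escaper 2, without which it was −0.0248, and was −2.03 without escaper 1. MYH7B, a related myosin gene of slow and extraocular fibres, read 0.26, 0.26, 1.07 and 1.29 in normal dogs, −0.25, 1.30, 0.39 and 0.77 in affected dogs, and 1.81 and −0.54 in the escapers. Its differences from normal were −0.17 and −0.09, both far inside the spread of the dogs.

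The slow light chain genes spread more than the slow myosin. The MYH7 probe was dimmer, at a mean log2 intensity of 9.82 against 13.3 for MYL3 and 14.4 for MYL2. Whether brightness set the spread was not tested. MYL3, the slow essential light chain, was −0.87, −0.22, 0.59 and 1.44 in normal dogs, −1.65, 1.86, −0.56 and 0.69 in affected dogs, and 1.53 and −1.79 in the escapers. Its mean was 0.24 ± 1.002 (SD, n = 4) in normal dogs and 0.09 ± 1.52 (SD, n = 4) in affected dogs, a difference well inside either spread. MYL2, the slow regulatory light chain, showed the same order at its ends, with 2.02 in affected 2 and −1.64 in escaper 2. TNNC1, the slow and cardiac troponin C, was −1.12, −0.71, −0.95 and 0.41 in normal dogs, −0.16, 1.10, −0.81 and −0.26 in affected dogs, and 0.77 and −0.83 in the escapers. The groups overlapped, with a difference of 0.56 ± 0.50 (SE) for affected minus normal and a limma adjusted p of 0.66. The TNNC1 probe was saturated in 1 channel or the other on 17 arrays.

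MYBPC1, the slow form of myosin-binding protein C, was measured by 2 probes. The brighter one was saturated on all 20 arrays and read 0.34, 0.34, 0.15 and 0.01 in normal dogs, −1.30, 0.99, 0.21 and 0.12 in affected dogs, and 1.29 and −2.82 in the escapers. The dimmer one, free of saturation, read −0.62 to 0.58 in normal dogs, −1.73 in affected 1 and −3.70 in escaper 2. Escaper minus normal was −0.97 at the first and −1.64 at the second, with limma adjusted p of 0.60 and 0.39, and the first was 1.09 without escaper 2.

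CSRP3 moved apart from the other slow genes. It encodes muscle LIM protein, a Z-disc and nuclear protein that is richer in slow fibres and is known to respond to stretch. Values were −3.37, −1.67, −1.55 and −0.66 in normal dogs, −0.64, 0.996, −0.53 and 0.18 in affected dogs, and −0.09 and −3.05 in the escapers. The affected and normal dogs did not overlap, though normal 4 and affected 1 almost met, and escaper 2 lay with the normal dogs. Affected minus normal was 1.81 ± 0.72 (SE), with a limma adjusted p of 0.37, and affected 1 rests on 1 array. The reference channel was saturated on all 20 arrays and the dog's channel on 5 affected ones, so these ratios are limited by the ceiling in both channels.

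MYOZ2, a Z-disc gene of slow fibres, carries only a numbered locus name in the files and is no member by the rule. It was found by updating symbols, as was an LMOD2 probe. Its values were −2.70, −1.49, −2.23 and −1.52 in normal dogs, −0.43, 0.82, −0.75 and −0.06 in affected dogs, and −0.28 and −2.06 in the escapers. The affected dogs all lay above the normal dogs and escaper 2 among the normal dogs, the same order as for CSRP3, without a saturated spot. The difference of 1.88 ± 0.46 (SE) had a limma adjusted p of 0.23.

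**Figure D3:**
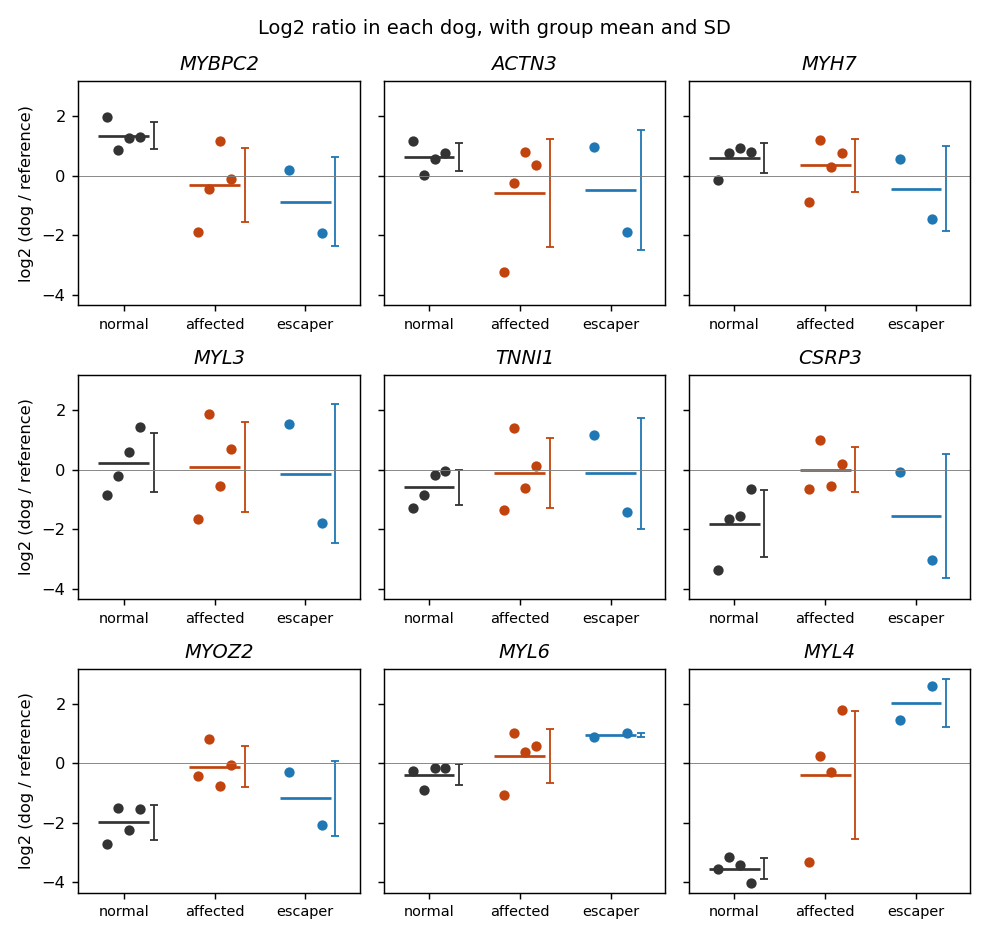
Log2 ratio of dog over reference for 9 genes, 1 point per dog, with group means (lines) and SD (bars) for normal (n = 4), affected (n = 4) and escaper (n = 2) dogs. MYOZ2 and CSRP3 show affected dogs above normal ones, MYBPC2 shows 3 of 4 affected dogs below, and MYL3 and TNNI1 show groups that overlap throughout.

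Shared sarcomere genes were lowest in a single escaper. Escaper 2 was the lowest of 10 dogs in 7 of 8 genes. Their median was −2.62 in escaper 2, −0.72 to 0.58 in affected dogs, −0.03 to 0.18 in normal dogs and 0.23 in escaper 1. The median difference of escaper minus normal was −1.26, with 7 of 8 genes negative, and it was 0.31 without escaper 2 and −2.71 without escaper 1. Affected minus normal was −0.18. Without escaper 1, 10 of 29 member genes (34.5%) passed against normal dogs, beside 24.5% of all tested probes, in a comparison of 1 dog that assumes it varies like the other groups. MYPN, TTN, ACTN2, LMOD3, TCAP, MYBPC1 and MYBPC2 were lower there, and MYL10, TPM1 and TPM4 higher.

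MYPN encodes myopalladin, which links alpha-actinin to titin and nebulin at the Z-disc. It read −0.05, 0.12, 0.26 and 0.23 in normal dogs, −0.67, −0.15, 0.14 and 0.12 in affected dogs, and −0.04 and −2.74 in the escapers. Escaper 1 lay inside the normal range and escaper 2 far below it. Escaper minus normal was −1.53 ± 0.58 (SE), with a limma adjusted p of 0.23, and −0.18 without escaper 2. The second MYPN probe, free of saturation, gave −0.78. ACTN2, the alpha-actinin of all skeletal Z-discs, was −3.13 in escaper 2 and −1.24 to −0.10 in the other dogs. TCAP, the titin cap of the Z-disc, was −1.42, −1.87, −0.31 and −0.43 in normal dogs, −0.76, 0.87, −1.31 and −0.27 in affected dogs, and 0.09 and −3.67 in the escapers. Normal and affected dogs overlapped, with a difference of 0.64 ± 0.77 (SE) and a limma adjusted p of 0.75. LMOD3, which nucleates thin filaments, was −2.06 in escaper 2 and −0.63 to 1.15 elsewhere.

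At the M-band, MYOM1 was low in both of the dogs that stood apart, at −2.28 in affected 1 and −2.50 in escaper 2, against 0.29 to 1.01 in the rest, and its second probe gave −1.996 and −2.27. MYOM3, a myomesin of slow and intermediate fibres, was −1.34, −1.30, −1.05 and −1.20 in normal dogs, −0.63, 0.02, −1.50 and −0.42 in affected dogs, and −0.66 and −1.68 in the escapers. Affected minus normal was 0.59 ± 0.32 (SE) with an adjusted p of 0.48 in limma, and affected 3 lay below the normal dogs. TPM2, the beta tropomyosin, was −2.99 in affected 1 and −0.72 in escaper 2, with −0.37 to 0.97 in the other dogs. Its unsaturated probe gave −2.74 in affected 1 and −1.85 in escaper 2, against −1.38 to 0.31 in the other dogs. Normal dogs read −1.38 to −0.47 there, and escaper minus normal was −0.12.

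Titin gave opposite pictures at its 2 member probes. At the 3′ end, values were 0.27, 0.53, 0.21 and 0.16 in normal dogs, −0.43, 0.94, 0.41 and 0.16 in affected dogs, and 0.39 and −3.05 in the escapers. There, normal and affected dogs overlapped with a difference of −0.02 ± 0.61 (SE), and escaper minus normal was −1.63 ± 0.74 (SE), with a limma adjusted p of 0.28. The 3′ probe was saturated in 1 channel or the other on 13 arrays.

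The internal probe read −2.74, −2.95, −3.27 and −2.25 in normal dogs, −2.05, 0.62, −0.19 and −0.75 in affected dogs, and −0.06 and −2.36 in the escapers. Every affected dog lay above every normal dog, affected 1 by the smallest margin, and escaper 2 lay among the normal dogs. The difference for affected minus normal was 2.21 ± 0.61 (SE), a 4.63-fold higher level, with a limma adjusted p of 0.25. Escaper minus normal was 1.59 ± 0.74 (SE), with adjusted p = 0.28, and was 0.44 without escaper 1 and 2.75 without escaper 2. This probe was never saturated, but 5 of its 20 spots were flagged, so normal dogs 2, 3 and 4 and affected dogs 1 and 3 rest on 1 array each. The array left had the dog in the dye Cy3 for those normal dogs and affected 1, and in Cy5 for affected 3. The dye swap therefore does not cancel in these dogs. With all 20 arrays and the dog as a random block, affected minus normal was 2.27 with an adjusted p of 0.023, in a fit that called 2.26% of all tested probes.

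Because the probes disagreed, 7 further probes whose descriptions name titin were read, all on the same strand between them and beyond. They were chosen from the descriptions after the files had been read. Affected minus normal lay between −0.40 and −0.17 at these 7 probes, with a lowest limma adjusted p of 0.76. Escaper 2 read −2.92 to −2.02 at all 7, while the other dogs read −0.55 to 0.99. The probe nearest to the internal one on the 3′ side gave −0.30 and the nearest on the 5′ side gave −0.17 for affected minus normal. The higher value in affected dogs was thus seen at 1 of 9 titin probes.

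**Figure D4:**
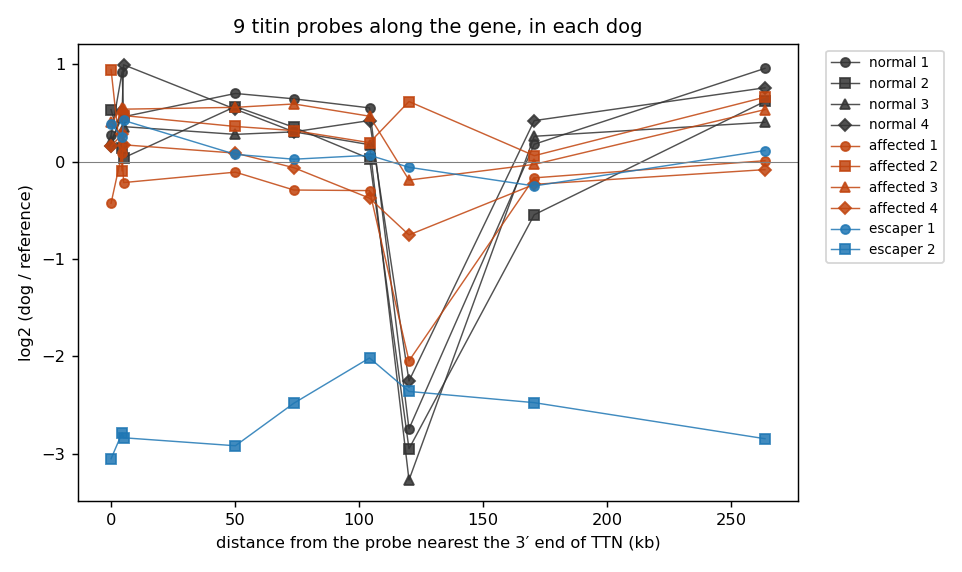
Log2 ratio of dog over reference (vertical) at 9 titin probes placed by distance from the probe nearest the 3′ end in kb (horizontal), 1 line per dog. Normal dogs drop to −3.27 to −2.25 at the internal probe at 120.1 kb, where affected 2 to 4 and escaper 1 stay between −0.75 and 0.62, and escaper 2 is low throughout.

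Other matches of the rule are forms that fibres of adult skeletal muscle use little or not at all. MYL6, an essential light chain of smooth and non-muscle cells, read −0.27, −0.91, −0.16 and −0.15 in normal dogs, −1.05, 1.04, 0.40 and 0.58 in affected dogs, and 0.90 and 1.01 in the escapers; the probe is described as the 6B form. Both escapers and 3 of 4 affected dogs lay above all normal dogs, of which normal 2 rests on 1 array. Escaper minus normal was 1.33 ± 0.48 (SE), with a limma adjusted p of 0.22. Affected minus normal was 0.61 ± 0.40 (SE), with adjusted p = 0.55.

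TNNI3, the cardiac troponin I, read −1.37, −0.64, −0.27 and 0.23 in normal dogs, −1.23, 0.96, −0.50 and 0.62 in affected dogs, and 0.50 and 1.63 in the escapers. Escaper minus normal was 1.58 ± 0.64 (SE), with a limma adjusted p of 0.24, and the escapers lay above all normal dogs. It was 1.01 without escaper 2. A second TNNI3 probe lies on the opposite strand and differed by −0.15 in that comparison. MYL10, a regulatory light chain, was not well above background on any normal array. It read −0.91 to −0.41 in normal dogs, −0.63 to 0.01 in affected dogs, −0.50 in escaper 1 and 0.85 in escaper 2, so of the escapers only escaper 2 lay above the normal dogs. Escaper minus normal had a limma adjusted p of 0.25. TPM4, a non-muscle tropomyosin, was 1.15 in escaper 2 and −0.96 to 0.10 in the rest. MYL5, a light chain gene, read −0.00245, 0.07, 0.14 and 0.29 in normal dogs, −0.35, −0.04, 0.07 and 0.21 in affected dogs, and 0.21 and −0.20 in the escapers. The probe exceeded background clearly on only 10 arrays, the groups overlapped, and affected minus normal was −0.15 ± 0.16 (SE) with a limma adjusted p of 0.71. ACTN1, a non-muscle alpha-actinin, lay between −0.23 and 0.13 in all 10 dogs, with a signal well above background on 8 of the 20 arrays only.

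MYL4, the atrial and embryonic light chain, was too dim to test at its named probe, which lies on the strand opposite to a second probe described as MYL4. The second probe read −3.55, −3.15, −3.42 and −4.01 in normal dogs, −3.32, 0.26, −0.29 and 1.81 in affected dogs, and 1.47 and 2.61 in the escapers. Affected 1 lay with the normal dogs and the other dystrophic dogs far above them. The difference was 5.57 ± 1.08 (SE) for escaper minus normal and 3.15 ± 0.88 (SE) for affected minus normal, with limma adjusted p of 0.18 and 0.26. ACTN4, both probes of MYBPC3 and the probe named TNNI3K, which is described as a different gene, were also too dim to test.

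Of 26 probes known by description only, 24 were tested. The slow forms among them did not run together. TNNI1, the slow troponin I, read −1.29, −0.84, −0.16 and −0.04 in normal dogs, −1.34, 1.42, −0.61 and 0.12 in affected dogs, and 1.18 and −1.44 in the escapers. TNNT1, the slow troponin T, read −0.06 to 0.35 in normal dogs, −0.25 to 0.995 in affected dogs and 1.01 and 0.60 in the escapers. The escapers lay above all normal dogs but overlapped the affected dogs. The reference was saturated on all 20 arrays and the dog's channel on 17, so these ratios are limited by the ceiling. MYL6B, an essential light chain of slow and non-muscle cells, was highest in escaper 2 at its first probe, at 1.56 against −0.99 to −0.75 in normal dogs. Escaper minus normal was 1.65 ± 0.39 (SE) there, with a limma adjusted p of 0.19, while its second probe read −0.70 in escaper 2. The first probe, known as MYL6B by description only, lies at chr10:3463083-3463141, beyond the MYL6 probe at chr10:3461920-3462248. The second lies before both, at chr10:3457069-3457128, all on the plus strand. Whether the first probe reads MYL6B or MYL6 was not tested. Nebulin (NEB), the ruler of the thin filament, was saturated in the reference on all 20 arrays and read −1.90 in escaper 2 against −0.26 to 0.86 in the other dogs. A probe described as similar to MYH6, the alpha cardiac myosin, read −2.56, −2.13, −2.41 and −2.25 in normal dogs, −1.86, −0.86, −1.54 and −0.31 in affected dogs, and −1.82 and −1.85 in the escapers. All dystrophic dogs lay above all normal dogs. The affected minus normal difference of 1.20 ± 0.30 (SE) had a limma adjusted p of 0.23.

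Genes around the sarcomere were read from lists of named genes. Of 33 genes of sarcomere assembly and upkeep, 21 were tested. Against normal dogs, 0 passed and 2 had a lower value at unadjusted p under 0.05 in affected dogs, and likewise 0 and 2 in escapers. Over all tested probes, 12.4% and 18.4% had an unadjusted p under 0.05 in these comparisons, in either direction. Their medians were −0.09 and −0.76, with 18 of 21 negative in escapers. By dog, the median was −1.58 in escaper 2 but 0.03 in escaper 1, which lay among the normal dogs at −0.46 to 0.22. Of 8 fast-fibre genes outside the sarcomere, 6 were tested with medians of −1.08 and −1.45. Among them 0 passed, and 0 and 1 were lower at unadjusted p under 0.05. PFKM, the muscle phosphofructokinase, was the lowest of the 6 at −1.94 and −2.82. In affected dogs 5 of the 6 were negative, while PVALB went the other way at 0.60, and in escapers all 6 were negative. PVALB was 3.76 and 2.44 in affected 3 and 4, against −0.41 to 1.65 in normal dogs. By dog, the fast-fibre median was −2.55 in affected 1, −1.77 in escaper 2 and 0.12 to 1.10 in the other dogs. Of 8 slow-fibre genes outside the sarcomere, 6 were tested with medians of −0.45 and −1.37, and 0 passed. At unadjusted p under 0.05, 1 was higher in affected dogs and 0 differed in escapers. By dog, the slow-fibre median was −2.33 in escaper 2, −1.31 in affected 1, 0.70 in escaper 1 and −0.44 to 0.995 in the rest. Of 18 regulators of fibre type, 10 were tested with medians of −0.07 and 0.02 and 0 passed. At unadjusted p under 0.05, 1 was lower in affected dogs and 3 in escapers. Of 5 foetal fibre genes, 3 were tested, all 3 positive with medians of 3.16 and 3.82. Among these, 0 passed, and all 3 were higher at unadjusted p under 0.05 in both comparisons with normal dogs. MYH8, the perinatal myosin, was −4.44 to −3.54 in normal dogs, −3.25 in affected 1 and −0.30 to 0.33 in affected 2 to 4. It was 0.75 and −2.11 in the escapers, with a saturated spot on 19 arrays.

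Markers of muscle fibres and of other cells were read by dog. The median of 6 fibroblast markers, all tested, was −1.14 to −0.21 in normal dogs, −1.01 to 1.49 in affected dogs, −0.14 in escaper 1 and 3.04 in escaper 2; COL1A1 was well above background on 4 arrays only. The median of 4 tested of 6 muscle fibre markers was 0.39 to 1.22 in normal dogs, −2.24 in affected 1, −0.13 to 0.36 in affected 2 to 4, 0.43 in escaper 1 and −2.45 in escaper 2. Desmin (DES), 1 of these 4, was well above background on all 20 arrays and had a saturated spot on 19. The medians of 3 macrophage markers lay between −0.90 and 0.57, of 2 smooth muscle markers between −0.26 and 0.66, of 5 adipocyte markers between 0.08 and 0.30 and of 3 endothelial markers between −0.98 and 1.14, and 0 of 4 T cell markers were tested. Escaper 2 was the highest dog for the fibroblast, macrophage, smooth muscle and endothelial medians. Over all 6214 genes with a symbol, escaper 2 was the highest dog in 25.5%. The part of these cell markers in the sarcomere values was not tested.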

How the data were processed

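Per the file headers, the authors quantified 20 scanned arrays with Feature Extraction 9.5.3.1 from Agilent. The deposited mean and background intensities were used. The deposited processed intensities had been background-subtracted and dye-normalised, per the file headers. The authors' deposited value table holds log2 ratios equal to those of dog over reference processed signals, with dye swaps turned (r = 1); its column medians lay between −0.16 and 0.25, so it was not centred, and the ratio's scale and direction are known.

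Intensities were corrected with normexp (offset 50) and loess in limma 3.58.1 (R 4.3.3). Controls (1417 of 43451 spots) and flagged spots were left out and saturated spots kept. The 2 arrays of a dog were averaged, so a dog is the replicate. Arrays had 30.5% to 60.2% of probes well above background, and across probes r was 0.627 to 0.939 between the arrays of the same dog. A single limma fit held all 3 groups, with Benjamini-Hochberg adjustment over 16008 probes, and was checked on simulated data. No paired analysis was made, since replicate numbers pair nothing.

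A gene stands for its tested probe with the highest mean log2 intensity. Values in every dog are given for myosin heavy chains and, by role and comparison with normal, the 2 genes with the smallest p; ACTN3, MYL3, TNNI1, MYOZ2, MYH6, MYL4 and the internal titin probe were added after their values were seen. Symbols were updated with a gene table of assembly UU_Cfam_GSD_1.0 (names only), and 12292 probes had a symbol. Members and lists were chosen with earlier results of these data known. The arrays' number limits precision.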

Additional observations from a re-analysis of the deposited data

Results flagged for a closer look

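In 40 groups of 4 dogs, 4 had a dog set apart from the others by more of the group's range than Dixon's critical value. Chance gives about 1 in 20 for independent values without a ceiling. These groups share dogs and include saturated probes such as MYH2, so the count cannot be set against that rate. MYH2 was −3.10 in affected 1, with the next affected dog at 0.16. The median of the fast genes was −1.65 in affected 1, with the next at 0.10. MYL6 was −0.91 in normal 2, which rests on 1 array there, with the next at −0.27. The median of the shared sarcomere genes was 0.18 in normal 3, with the next at 0.01.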

How the results depend on the processing

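Differences between affected and normal dogs for MYBPC2, MYOZ3, CSRP3, MYL6, MYOM3, TCAP, TNNC1, MYL5 and the internal TTN probe kept their sign in every alternative that gave a value, though not their size, as did those between escaper and normal dogs for MYBPC2, MYL6, TNNI3, MYPN, MYH7 and the internal TTN probe. Without affected 2, affected minus normal fell to 0.35 for MYL6, 0.37 for MYOM3, 0.23 for TCAP and 0.18 for TNNC1, and MYOM3 was 1.25 with the processed signals. With all 20 arrays and the dog as a random block, 3 genes passed for escaper minus normal (MYBPC2, MYPN, TNNI3), 10.3% of member genes beside 6.67% of all tested probes. Leaving out 1 dog in turn gave 0 to 10 genes passing for escaper minus normal and 0 to 9 for escaper minus affected; the highest counts, both without escaper 1, stand beside 24.5% and 11% of all tested probes. The escaper minus normal medians then ranged from −1.41 to 0.51 (fast), −1.97 to 1.09 (slow) and −2.71 to 0.31 (shared), and the escaper minus affected medians from −1.88 to 0.93 (slow) and −2.48 to 0.21 (shared). Leaving out 1 dog also turned MYH7 (−0.53 to 0.16) and MYH7B (−0.42 to 0.10) for affected minus normal, and TTN (−3.35 to 0.0931), MYBPC1 (−3.03 to 1.09) and MYH7B (−1.27 to 1.09) for escaper minus normal. Median centring turned MYLPF for escaper minus normal to −0.36. Further alternatives were added after the data were seen. Without affected 1 and escaper 2 together, 1 gene passed for affected minus normal (MYL6), 3.45% of member genes beside 5.62% of all tested probes, MYH7 was 0.16 and MYH7B 0.10; for escaper minus normal, which then has 1 escaper, the medians were 0.51, 1.09 and 0.31, and TTN was 0.0931, MYBPC1 1.09 and MYH7B 1.09. With unsaturated probes only, TTN for escaper minus normal was 1.59, since its internal probe then stands for the gene. The slide block had a correlation of −0.27 over all tested probes, which need not hold for each member. The median of the unsaturated slow genes was 0.07 and 0.02 in normal 1 and 2, which shared a slide. It was 0.77 and 1.05 in normal 3 and 4 on another, but −1.27 and 1.25 in affected 1 and 2, which also shared a slide. The internal TTN probe has no value with a single dye, since flagged spots leave dogs without one. No paired analysis was possible because replicate numbers are those of dogs and pair none across groups.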
